A study of Austrofundulus limnaeus and Nothobranchius furzeri and Aphyosemion australe with 30 samples.

Results

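Embryos of the South American killifish (Austrofundulus limnaeus) that had been in diapause for 6 days (Dia 6d) were compared with embryos at the pre-diapause stage (Pre-Dia) by their accessible chromatin. The comparison covered all 68977 consensus peaks of the larger deposited table of this species and used 5 of the 30 samples of the series, 3 Dia 6d and 2 Pre-Dia libraries. The series held 14 samples of this species among 4 killifish species. The same table held 2 libraries of developing embryos (Dev) and 2 libraries of embryos after 1 month of diapause (Dia 1m), which entered the estimate of the spread and gave a separate comparison of diapause with development.

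All embryos were untreated wild-type embryos of the Quisiro strain, and each library was made from about 25000 nuclei of about 10 pooled, dissected whole bodies. Pre-Dia embryos had 15 to 22 somites and still carried Kupffer's vesicle, the transient fluid-filled organ that sets the left-right axis in fish. Per the study's methods, their parents were young fish spawning for the first time, whose offspring mainly develop directly, so that the Pre-Dia group stands for embryos bound for development rather than for diapause. Dia 6d embryos had a heart rate that had slowed to less than 45 beats per minute, Dia 1m embryos had been in diapause for 1 month, and Dev embryos were labelled as having a heartbeat of over 60 per minute. Diapause, the age of the embryo, the loss of Kupffer's vesicle, the onset of the heartbeat and the clutch of origin changed together between Pre-Dia and Dia 6d, and their parts in a difference cannot be told apart. The sources used here do not say whether the replicates came from separate clutches, so that the p-values measure the spread between these samples, which may be technical.

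Diapause is a programmed pause of embryonic development that lets the eggs of annual killifish outlast the dry season in the mud. In the South American killifish it sets in after the body axis has been segmented, when the heartbeat slows, cell division nearly stops and the embryo lowers its metabolism. In ATAC-seq the transposase Tn5 inserts adapters into DNA that is not wrapped in nucleosomes, so that reads pile up over promoters, enhancers and other regulatory elements that proteins keep open. A peak that gains reads between stages is a stretch of DNA that is open in more of the cells or more often, and in a whole embryo a change of cell types and a change within a cell type look the same. The embryos were whole bodies with no sorted cell type, and the peaks were not placed on genes, so that peaks are named here by their number and scaffold, with coordinates of the assembly Austrofundulus_limnaeus-1.0.

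Values are normalised reads: reads in a peak divided by 1 factor per library. The 5 libraries held 2.99 to 11.4 M reads in peaks. Dia 6d libraries held 7.47 ± 1.00 M reads (SD, n = 3) and Pre-Dia libraries 7.22 ± 5.98 M (SD, n = 2), with a two-sided exact permutation p of 0.9 over 10 splits, of which 0.1 is the smallest possible. The library Pre-Dia 1.5 stood apart. It held 2.99 M reads, and 13.9% of its peaks had fewer than 10 reads, against 0.17% in Pre-Dia 2 and 0.18% to 0.77% in the Dia 6d libraries. No library had a value below that of 1 read in any peak, so that a value of 1 read may stand for 0, and this was the value of 520 peaks in Pre-Dia 1.5 and of at most 20 in each of the other 4 libraries of the comparison.

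Accessibility differed between the stages at 3334 of 68977 peaks, 4.83% of those tested, by limma's moderated test on log2(value + 1) with an adjusted p below 0.05. More peaks were higher than lower in early diapause: 2377 peaks (3.45%) were higher in Dia 6d and 957 peaks (1.39%) were lower. The median log2 difference was 1.5 over the higher peaks and -1.30 over the lower peaks, and the largest were 4.81 and -4.61. Differences of at least 4-fold on this scale were seen at 395 of the higher and 48 of the lower peaks, and of at least 8-fold at 19 and 14. Every Dia 6d library lay above every Pre-Dia library at 2279 of the 2377 higher peaks. At 955 of the 957 lower peaks every Dia 6d library lay below every Pre-Dia library. The calls were made on these same values and largely fix these counts. Over all peaks, 17.8% and 18.4% were separated in these directions. The higher peaks together covered 999 kb and the lower peaks 482 kb.

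**Figure D1:**
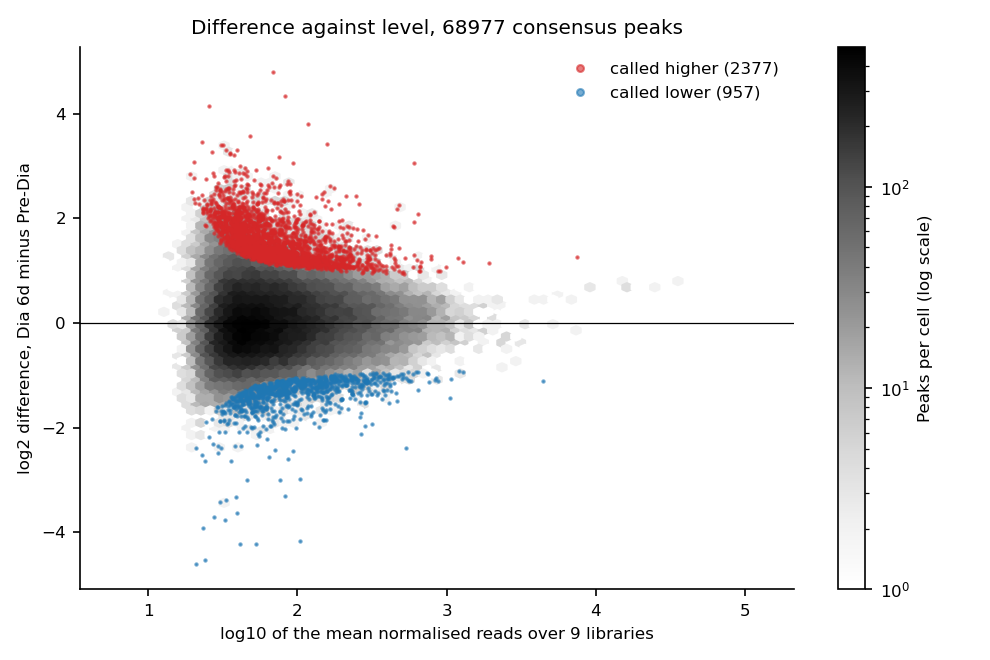
Log2 difference between Dia 6d and Pre-Dia (vertical axis) against the log10 of the mean normalised reads over 9 libraries (horizontal axis) for 68977 consensus peaks. Grey cells give the density of peaks, red points are the 2377 peaks called higher and blue points the 957 called lower; the largest differences in both directions lie among peaks of low and middle level.

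The direction held in the count tests, with a smaller excess of higher peaks. Higher peaks made up 71.3% of the limma calls, 61.5% of the 2952 calls of edgeR and 57.7% of the 1859 calls of DESeq2 on the reads recovered from the values, and 62.6% of the 2827 calls after quantile normalisation. All 3 tools called 1026 of the higher peaks and 696 of the lower peaks in the same direction, or 43.2% and 72.7%.

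Which peaks were called depended on the Pre-Dia library used. With either left out, a single Pre-Dia library remained, and the error of that fit held no spread between Pre-Dia libraries. Pre-Dia 1.5 was the lowest of all 9 libraries at 1519 of the 2377 higher peaks and Pre-Dia 2 at 609. Over all 68977 peaks these counts were 13288 and 7847. At the 957 lower peaks Pre-Dia 1.5 was the highest library at 457 and Pre-Dia 2 at 371. The highest library was not counted over all peaks. The calls themselves favour a Pre-Dia library at these extremes. Pre-Dia 1.5 held 3 reads or fewer at 530 of the higher peaks (22.3%), against 2.42% of all peaks. Without Pre-Dia 1.5 there were 2068 higher and 651 lower peaks, but only 856 of the 2377 and 428 of the 957 were still called. Without Pre-Dia 2 there were 5555 higher and 2170 lower peaks, which included 1884 and 676 of the original calls. Peaks called with each of these libraries left out in turn numbered 415 higher and 230 lower, with median log2 differences of 1.83 and -1.53. The Pre-Dia libraries differed from each other by a median of 1.01 on the log2 scale at the higher peaks, 0.37 at the lower peaks and 0.51 over all peaks.

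For the called peaks the Dev libraries lay between Pre-Dia and Dia 6d, and the Dia 1m libraries lay between Dev and Dia 6d or, in 1 library at the higher peaks, within the Dia 6d range. For the higher peaks the median library level was 24.7 and 36.6 normalised reads in Pre-Dia, 52.8 and 48.5 in Dev, 81.7 to 89.0 in Dia 6d, and 63.0 and 86.5 in Dia 1m. For the lower peaks it was 145 and 133 in Pre-Dia, 94.5 and 93.4 in Dev, 53.6 to 60.3 in Dia 6d, and 81.4 and 63.6 in Dia 1m. Over all peaks every library had a median between 59.5 and 63.0. The lower peaks were thus stronger than most peaks in Pre-Dia and near the median of all peaks in Dia 6d, and the higher peaks were weaker than most in Pre-Dia and stronger in Dia 6d. Pre-Dia and Dia 6d chose these peaks, so that their levels are a description. Libraries that did not choose the peaks tend to fall between groups chosen as extremes, so that the place of Dev and Dia 1m does not by itself give an order of stages.

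**Figure D2:**
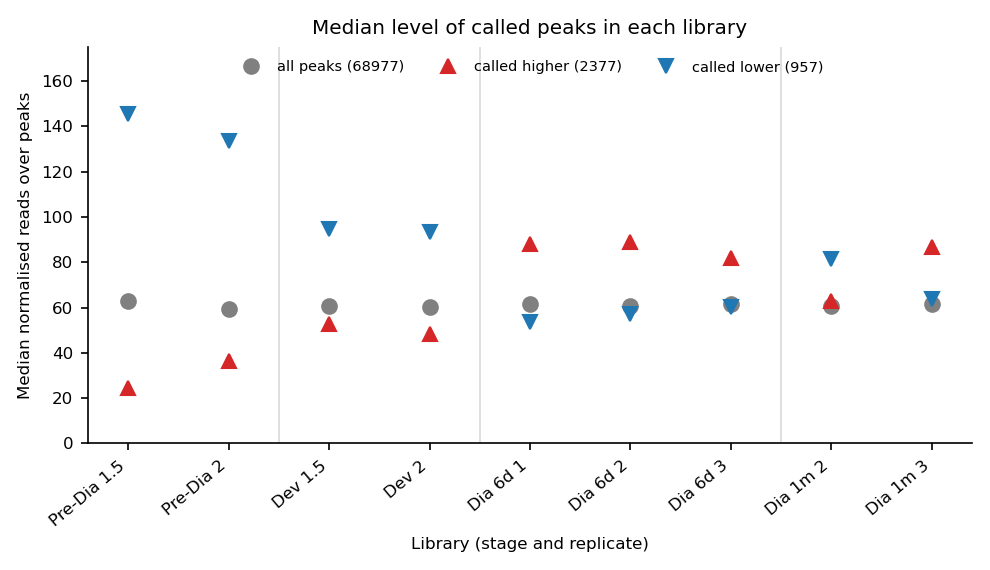
Median normalised reads (vertical axis) in each of 9 libraries (horizontal axis, by stage and replicate) over all peaks (grey circles), the 2377 peaks called higher (red triangles) and the 957 called lower (blue triangles) in Dia 6d. All peaks stay between 59.5 and 63.0, while the called peaks cross over between the Pre-Dia and the Dia 6d libraries.

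The Dia 1m and Dev libraries, which are in neither of the groups compared, gave the same measure in other embryos. They did enter the estimate of the spread behind the calls. Peaks at which they vary little were thus called more readily, which can raise the shares given here, so that these are not wholly separate from the calls. Both Dia 1m libraries lay above both Dev libraries at 1198 of the 2377 higher peaks (50.4%), against 25.2% of all peaks, and below them at 104. Both lay below both Dev libraries at 467 of the 957 lower peaks (48.8%), against 23.2% of all peaks, and above them at 68. In a limma fit of these 4 libraries alone, 417 of the higher peaks were higher in Dia 1m, against 4.82% of all peaks, and 21 were lower. Of the lower peaks, 113 were lower in Dia 1m, against 2.1% of all peaks, and 8 were higher. The median log2 difference between Dia 1m and Dev was 0.53 at the higher peaks, -0.42 at the lower peaks and 0.01 over all peaks. The medians of 1.5 and -1.30 between Dia 6d and Pre-Dia are not comparable with these, since that contrast chose the peaks. Of the peaks called with each Pre-Dia library left out in turn, 57.1% of the 415 higher and 50.4% of the 230 lower peaks had both Dia 1m libraries on the same side of both Dev libraries. This share was 45.8% of the higher and 51.0% of the lower calls made without Pre-Dia 1.5, and 40.6% and 42.9% of those made without Pre-Dia 2. The median log2 difference between Dia 1m and Dev at the higher calls was then 0.34 and 0.35.

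The difference between Dia 6d and Pre-Dia and the difference between Dia 1m and Dev were also compared directly. This difference of differences passed the threshold at 342 peaks (0.496%) by limma's test across all peaks, 128 of them positive and 214 negative. By the same test 8573 peaks (12.4% of all peaks) had an unadjusted p under 0.05. Of the 342, 68 were among the higher peaks and 42 among the lower peaks, sets that hold 3.45% and 1.39% of all peaks. The Dia 6d and Pre-Dia values that chose the called peaks also enter this test, which favours called peaks among the 342. At the other called peaks this test did not separate the early-diapause difference from the later one, which does not show that they were alike.

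Among the peaks that rose most, some were nearly closed in Pre-Dia embryos and were open in every Dia 6d library. The rule for naming took peaks with a mean of at least 20 normalised reads whose groups did not overlap, and these values also chose them. Alim_peak_42880 (scaffold NW_013952941.1, 286122 to 286536, 415 bp wide) held 2.74 and 5.88 normalised reads in Pre-Dia and 148.5, 141 and 133 in Dia 6d. The Dia 6d libraries differed little from each other here and both Pre-Dia libraries were far below them. The log2 difference was 4.81 (SE 0.49, adjusted p = 9.2e-09), and the read totals gave a ratio of 26.8 with a 95% exact counting interval of 14.4 to 56.3. Dev stood at 53.6 and 28.2 and Dia 1m at 13.0 and 94.5, so that the later diapause libraries fell on either side of the developing ones.

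Alim_peak_51978 (NW_013953341.1, 43033 to 43363, 331 bp) held 24.7 and 0.653 in Pre-Dia and 140, 130 and 126 in Dia 6d. The value of 0.653 was that of 1 read. The log2 difference was 4.35 (SE 0.52, adjusted p = 4.2e-07), and DESeq2 did not call it, with an adjusted p of 0.074. Dia 1m libraries held 155 and 110, on either side of the Dia 6d values, and Dev libraries held 21.3 and 35.5, on either side of the higher Pre-Dia value.

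Alim_peak_5791 (NW_013952424.1, 2390145 to 2390739, 595 bp) held 2.74 and 43.8 in Pre-Dia and 263.5, 165 and 134.5 in Dia 6d. It was thus at 1 read in the shallow library and well covered in the other, and its log2 difference of 3.81 (SE 0.48, adjusted p = 1.6e-06) moved to 2.02 without Pre-Dia 1.5. Dia 1m libraries held 141 and 241 and Dev libraries 36.6 and 34.7. The peak was therefore open in all 5 diapause libraries at a level of 134.5 or more and did not exceed 43.8 in the 4 others.

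Alim_peak_624 and Alim_peak_625 were neighbours on scaffold NW_013952403.1, at 4321268 to 4323090 and 4323641 to 4324485, and both were among the 3 higher peaks with the smallest adjusted p. Alim_peak_624, 1823 bp wide, held 107 and 195 in Pre-Dia and 1335, 1451 and 932 in Dia 6d. Its log2 difference was 3.07 (SE 0.32, adjusted p = 9.2e-09), with a read ratio of 7.11 and a counting interval of 6.35 to 7.97. This was the most strongly covered of the named peaks, and its reads rose in every Dia 6d library. Alim_peak_625, 845 bp wide, held 24.7 and 35.3 in Pre-Dia and 318, 412 and 265 in Dia 6d, a log2 difference of 3.42 (SE 0.37, adjusted p = 3.5e-08). In Dev both peaks lay above Pre-Dia and far below Dia 6d, at 203 and 211 for Alim_peak_624 and 46.0 and 53.6 for Alim_peak_625. In Dia 1m they were intermediate and unequal, at 304 and 679 and at 55.4 and 219.

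The other 4 named higher peaks were narrower and had few reads in Pre-Dia. Alim_peak_58309 (NW_013954012.1, 12583 to 12784, 202 bp) held 2.74 and 1.96 in Pre-Dia and 43.5, 64.6 and 70.4 in Dia 6d, and its log2 difference of 4.16 (SE 0.95) was not called when any Dia 6d library was left out. Alim_peak_20154 (NW_013952540.1, 44721 to 44951, 231 bp) held 2.74 and 11.1 in Pre-Dia and 43.5, 141 and 81.7 in Dia 6d. Its log2 difference was 3.58 (SE 0.48). Its Dia 6d libraries were uneven, and the lowest of them was near the Dev values of 38.3 and 31.8. Alim_peak_26986 (NW_013952622.1, 460280 to 460468, 189 bp) held 5.48 and 0.653 in Pre-Dia and 44.7, 23.4 and 41.5 in Dia 6d, which rests on 3 Pre-Dia reads in all and gave a ratio of 22.4 with a counting interval of 7.46 to 111. Alim_peak_2462 (NW_013952409.1, 2505174 to 2505433, 260 bp) held 2.74 and 6.53 in Pre-Dia and 63.6, 66.5 and 40.2 in Dia 6d, a log2 difference of 3.41 (SE 0.63). All 9 named higher peaks were called without Pre-Dia 1.5, without Pre-Dia 2 and by edgeR.

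**Figure D3:**
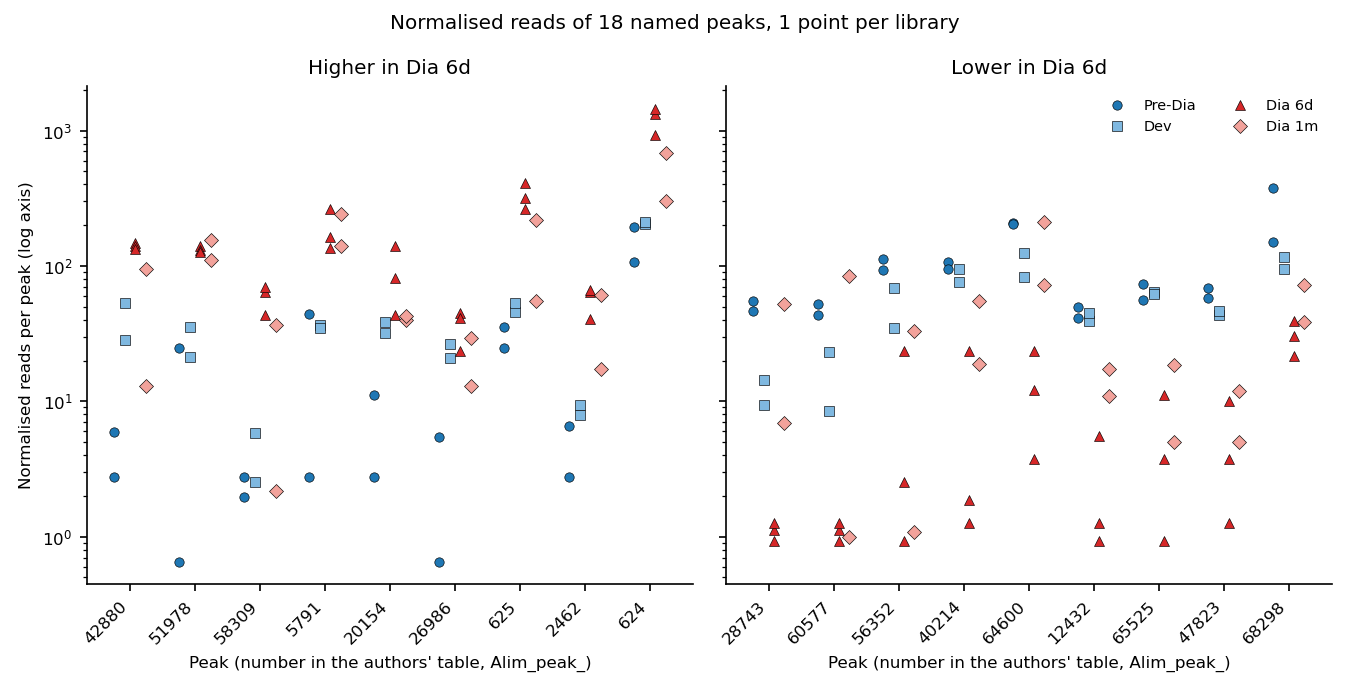
Normalised reads (vertical log axis) of the 18 named peaks (horizontal axis, by peak number) in each library, 9 peaks higher and 9 lower in Dia 6d. Circles are Pre-Dia, squares Dev, triangles Dia 6d and diamonds Dia 1m; red triangles and dark blue circles do not overlap at any of these peaks, which the rule required, whereas Dev and Dia 1m lie between or beyond them.

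Among the peaks that fell most, several were left at a handful of reads in the Dia 6d libraries. Alim_peak_64600 (NW_013956163.1, 1527 to 1797, 271 bp) held 208 and 205 in Pre-Dia and 23.4, 12.2 and 3.77 in Dia 6d. Both Pre-Dia libraries were nearly equal and the Dia 6d libraries, though unequal, were all far below. The log2 difference was -4.17 (SE 0.43, adjusted p = 9.2e-09), and the Pre-Dia reads exceeded the Dia 6d reads by a ratio of 15.3 with a counting interval of 10.9 to 22.1. Its Dia 1m libraries held 210 and 72.6, on either side of its Dev libraries at 82.6 and 124.

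Alim_peak_68298 (NW_013967581.1, 12 to 342, 331 bp) held 151 and 374 in Pre-Dia and 30.1, 21.5 and 39.0 in Dia 6d. Its log2 difference was -2.97 (SE 0.37, adjusted p = 1.6e-06). Dev libraries held 94.5 and 116.5 and Dia 1m libraries 72.8 and 38.8, so that Dev lay between Pre-Dia and Dia 6d, and the lower Dia 1m value was within the Dia 6d range.

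Alim_peak_40214 (NW_013952865.1, 352766 to 353430, 665 bp) held 107 and 94.1 in Pre-Dia and 23.4, 1.87 and 1.26 in Dia 6d, a log2 difference of -4.23 (SE 0.59, adjusted p = 1.6e-05). Dev libraries were near Pre-Dia at 76.6 and 95.5, and Dia 1m libraries lay lower at 55.4 and 18.9. Alim_peak_56352 (NW_013953744.1, 97177 to 97759, 583 bp) had the same uneven Dia 6d libraries, with 93.2 and 112 in Pre-Dia against 23.4, 0.937 and 2.51 in Dia 6d. In these peaks Dia 6d 1 held 21 reads and the other 2 libraries at most 2, and DESeq2 called neither, with adjusted p-values of 0.089 and 0.11.

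Alim_peak_28743 (NW_013952649.1, 875641 to 875820, 180 bp) held 54.8 and 46.4 in Pre-Dia and the value of 1 read in each Dia 6d library. Alim_peak_60577 (NW_013954438.1, 27716 to 28004, 289 bp) had the same pattern with 52.1 and 43.1 in Pre-Dia. With 3 reads over the Dia 6d libraries, the ratios were 44.2 with a counting interval of 14.6 to 218 and 41.2 with an interval of 13.6 to 204. The log2 differences were -4.61 (SE 1.06) and -4.53 (SE 1.21), the widest errors among the named peaks, and neither was called without Pre-Dia 1.5, at an adjusted p of up to 0.12. The Dia 1m libraries disagreed at both peaks, with 52.1 against 6.96 at Alim_peak_28743 and 84.7 against 0.994 at Alim_peak_60577.

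The remaining 3 lower peaks behaved alike over the stages. Alim_peak_12432 (NW_013952469.1, 477205 to 477453, 249 bp) held 49.3 and 41.2 in Pre-Dia, 39.2 and 44.9 in Dev, 17.4 and 10.9 in Dia 1m and at most 5.58 in Dia 6d. Alim_peak_65525 (NW_013957656.1, 1521 to 1909, 389 bp) held 74.0 and 56.2 in Pre-Dia, 63.9 and 61.5 in Dev, 18.5 and 4.97 in Dia 1m and at most 11.2 in Dia 6d. Alim_peak_47823 (NW_013953115.1, 109363 to 109686, 324 bp) held 68.5 and 58.2 in Pre-Dia, 43.4 and 46.3 in Dev, 11.9 and 4.97 in Dia 1m and at most 10.05 in Dia 6d. The 3 peaks were grouped here by their values. At all 3 both Dia 1m libraries lay below both Dev libraries, which the naming rule did not use and which held at 23.2% of all peaks. Of the other named lower peaks, it held at Alim_peak_40214, Alim_peak_56352 and Alim_peak_68298. It did not hold at Alim_peak_28743, Alim_peak_60577 and Alim_peak_64600. The log2 differences of the 3 grouped peaks between Dia 6d and Pre-Dia were -3.91, -3.76 and -3.71, with SEs of 0.81, 0.70 and 0.74. The read ratios and their counting intervals cover counting error only, since reads were pooled over the libraries of each group. The spread between libraries is not in them.

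Calls at the threshold did not all rest on small differences. Alim_peak_496, just inside it, held 32.9 and 92.1 in Pre-Dia and 143, 146 and 91.8 in Dia 6d, with a log2 difference of 1.16 and overlapping groups. Alim_peak_20061, just outside it, held 118 and 21.6 in Pre-Dia and 109, 154.5 and 122 in Dia 6d. Among lower peaks, Alim_peak_41475 just inside held 35.6 and 34.0 in Pre-Dia and 12.3, 13.1 and 3.77 in Dia 6d. Its log2 difference of -1.89 (SE 0.59) was larger in size than the median of -1.30 over the lower peaks. Alim_peak_31228 just outside held 233 and 203 against 99.4, 114 and 111. The last of these was the better covered and the more even, with a log2 difference of only -1.0.

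Higher and lower peaks differed in width and level. The median width was 348 bp for the higher peaks, 443 bp for the lower peaks and 379 bp for all peaks. When all peaks were divided into 5 classes of width, the share called higher went from 4.4% in the narrowest to 2.89% in the widest class and the share called lower from 0.80% to 1.80%, and each share moved in 1 direction over the 5 classes. The median mean level was 64.2 normalised reads for the higher, 87.1 for the lower and 61.5 for all peaks. Over 5 classes of level the share called lower was 0.41% in the weakest and 2.35% in the strongest, whereas the share called higher was 2.36% and 3.04% there and largest next to the strongest class, at 4.12%. The median widths of the higher and lower calls were 317 bp and 570 bp without Pre-Dia 1.5 and 371 bp and 410 bp without Pre-Dia 2, so that the size of the contrast in width depended on the Pre-Dia library used. Level is not independent of the call, since a peak with more reads has a smaller error.

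Peaks called in the same direction also lay next to each other, among higher and among lower peaks. Of the peaks called higher, 407 (17.1%) stood in 179 runs of 2 or more consecutive peaks, all called higher, with at most 20 kb between neighbours. Of the peaks called lower, 73 (7.63%) stood in 35 such runs. More peaks were called higher than lower, which by itself raises the share in runs. The share for calls placed at random was not computed. Without Pre-Dia 2, which gave more calls, there were 714 runs with 1704 higher peaks (30.7%) and 150 runs with 328 lower peaks (15.1%). Among neighbouring peaks less than 1 kb apart, a peak next to one called higher was itself called higher in 23.1% of cases, and this share was 15.5% at 1 to 5 kb and 9.63% at 5 to 20 kb, against 3.45% of all peaks. For lower peaks the shares were 10.4%, 6.85% and 2.21%, against 1.39%. At 20 to 100 kb the shares were 8.86% for higher and 3.72% for lower peaks, so that they did not fall steadily to those of all peaks. The log2 differences of neighbours correlated across pairs with r of 0.54 under 1 kb (8705 pairs), 0.32 at 5 to 20 kb (23358 pairs) and 0.27 at 20 to 100 kb (10245 pairs), where the neighbours share the same 5 libraries. Peaks called in opposite directions within 20 kb of each other made up 15 neighbouring pairs. These were 1 of 8705 pairs under 1 kb, 6 of 19336 at 1 to 5 kb and 8 of 23358 at 5 to 20 kb. With 3.45% and 1.39% of all peaks called, such pairs would be few in any case.

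The longest run of higher peaks held 6 peaks within 5.54 kb on scaffold NW_013954337.1, from Alim_peak_60145 to Alim_peak_60150 (4508 to 10049). Summed over the run, normalised reads were 162 and 277 in Pre-Dia, 439, 1091 and 1184 in Dia 6d, 130 and 529 in Dev, and 82.5 and 256 in Dia 1m. The Dia 6d libraries lay above both Pre-Dia libraries, but 1 Dev library exceeded the lowest of them and Dia 1m was no higher than Pre-Dia. The widest member, Alim_peak_60149 (1038 bp), held 85.0 and 120 in Pre-Dia and 190, 456 and 532 in Dia 6d. Pre-Dia 1.5 was at 1 read in 2 of the 6 peaks, and 2 of the 6 were called without it.

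The run on scaffold NW_013953021.1 held 5 peaks from Alim_peak_45297 to Alim_peak_45301 (266040 to 277539). Its summed normalised reads were 304 and 112 in Pre-Dia, 635, 852 and 798 in Dia 6d, 231 and 353 in Dev, and 373.5 and 575 in Dia 1m. Every diapause library lay above every other library in this sum. All 5 peaks were called without Pre-Dia 1.5 and 3 without Pre-Dia 2. The run on NW_013952457.1 held 5 peaks from Alim_peak_11078 to Alim_peak_11082 (2013671 to 2041273), with sums of 90.5 and 174 in Pre-Dia and 356, 407 and 322 in Dia 6d. Its Dev sums of 268 and 186 and Dia 1m sums of 208 and 375 overlapped. Only 1 of its 5 peaks was called without Pre-Dia 1.5.

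The longest run of lower peaks held 4 peaks within 5.135 kb on NW_013952745.1, from Alim_peak_34648 to Alim_peak_34651 (22850 to 27985). The sums were 1223 and 959 in Pre-Dia, 424, 474 and 288 in Dia 6d, 859 and 1228 in Dev, and 657 and 463 in Dia 1m. Diapause libraries were all below the others, and the 4 log2 differences lay between -1.43 and -1.58. Without Pre-Dia 1.5, 3 of the 4 peaks were called. The run on NW_013952865.1 held 3 peaks, Alim_peak_40213 to Alim_peak_40215 (350689 to 363258), with sums of 318 and 310 in Pre-Dia and 77.04, 24.3 and 51.5 in Dia 6d, and all 3 were called with either Pre-Dia library left out. The last run named, Alim_peak_63437 and Alim_peak_63438 on NW_013955335.1 (281 to 4524), held 112 and 79.1 in Pre-Dia and 36.8, 1.87 and 2.51 in Dia 6d, and was the first of the 2-peak runs by its mean difference. In its sum Dev libraries were low, at 15.3 and 6.51, and Dia 1m libraries high, at 214 and 103, the reverse of their order in the other runs of lower peaks. At both peaks of this run Dia 6d 2 and Dia 6d 3 held the value of 1 read. Without Pre-Dia 1.5 the log2 differences were -2.70 and -3.54, against -3.41 and -3.39 with it.

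**Figure D4:**
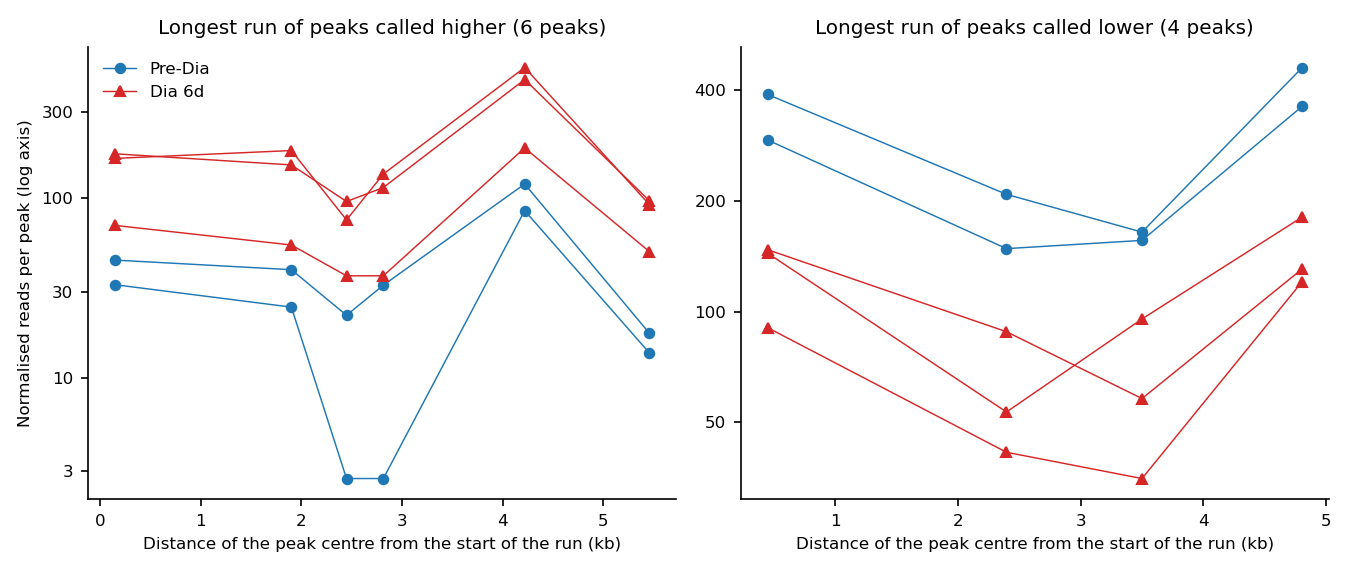
Normalised reads per peak (vertical log axis) along the longest run of higher peaks (left, 6 peaks) and of lower peaks (right, 4 peaks), by distance of the peak centre from the start of the run in kb (horizontal axis), with 1 line per library. Blue circles are the 2 Pre-Dia and red triangles the 3 Dia 6d libraries; the lines of the groups do not cross within either run, and 1 Pre-Dia library drops to the value of 1 read at 2 peaks of the left run.

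Beyond such runs, the balance of the comparison differed between whole scaffolds. On the 129 scaffolds with at least 100 peaks, which held 21087 peaks, the median log2 difference ranged from -0.57 to 0.82. The scaffolds named next were chosen after their values were seen. NW_013952434.1 had the highest median, and 27 of its 121 peaks (22.3%) were called higher and 0 lower. NW_013952404.1 had 40 of 297 peaks higher and 0 lower, and NW_013952450.1 had 20 of 106 higher and 1 lower. At the other end, NW_013952739.1 had 13 of 122 peaks (10.7%) lower and 0 higher. Without Pre-Dia 1.5 the median log2 difference was 0.28 in place of 0.59 on NW_013952404.1 and 0.33 in place of 0.76 on NW_013952450.1. On NW_013952739.1 it was -0.52 in place of -0.57.

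Peaks were called higher more often on scaffolds on which peaks are sparse, though not on these alone. NW_013952436.1, for example, had 9.09% of its peaks called higher at 86.9 peaks per Mb. Its median log2 difference was 0.48, and 0.46 without Pre-Dia 1.5. The 129 scaffolds were divided into 3 classes of 43 by their peaks per Mb, with the end of the last peak taken as the scaffold length. In the sparsest class (30.2 to 55.9 per Mb), 6.43% of 7477 peaks were called higher and 0.87% lower. In the densest class (96.2 to 268 per Mb), 1.24% of 6591 peaks were called higher and 1.52% lower. The scaffold median difference correlated with peaks per Mb at r = -0.67 over the 129 scaffolds, which share the same libraries. Pre-Dia 1.5 moved with this pattern: its median deviation from the mean of the 9 libraries was -0.31 in the sparsest and 0.16 in the densest class, against 0.00 and 0.08 in Pre-Dia 2. Dia 6d libraries deviated by 0.02 to 0.13 in the sparsest and by -0.09 to -0.02 in the densest class. The Dia 1m libraries disagreed in the sparsest class, with -0.10 in Dia 1m 2 and 0.17 in Dia 1m 3. The median log2 difference between Dia 1m and Dev was -0.07 in the sparsest, 0.05 in the middle and -0.08 in the densest class. Without Pre-Dia 1.5, 2.41% of peaks in the sparsest and 0.97% in the densest class were called higher, and the correlation was -0.53. On NW_013952434.1, 6 peaks were called higher without that library, and its median was 0.35 in place of 0.82. Without Pre-Dia 2, 16.9% of peaks in the sparsest and 3.87% in the densest class were called higher. After each library was centred on every scaffold of at least 20 peaks, an adjustment chosen after seeing the data, 1508 higher and 786 lower peaks were called. Depth of the library was not separated from this pattern, and its part was not tested.

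**Figure D5:**
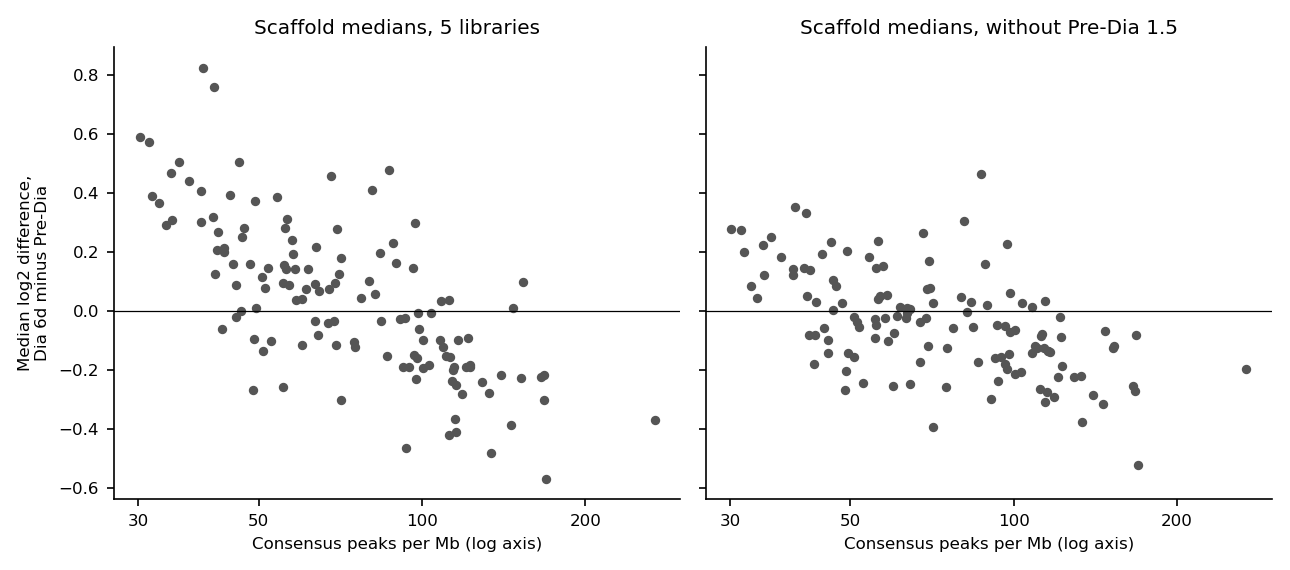
Median log2 difference between Dia 6d and Pre-Dia over the peaks of a scaffold (vertical axis) against consensus peaks per Mb of that scaffold (horizontal log axis), 1 point for each of 129 scaffolds with at least 100 peaks, with all 5 libraries (left) and without Pre-Dia 1.5 (right). The medians fall from up to 0.82 on sparse scaffolds to -0.57 on a dense one, and span a narrower range without that library.

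Small scaffolds showed a different dependence. Of the 3210 peaks that were the only peak of their scaffold, 7.17% were called higher and 2.21% lower, against 2.78% and 1.42% of the 35954 peaks on scaffolds with 10 to 99 peaks. The share higher on single-peak scaffolds was 13.4% without Pre-Dia 1.5 and 7.13% without Pre-Dia 2, when 7.20% of the peaks on scaffolds with 10 to 99 peaks were called higher. The excess on single-peak scaffolds was therefore absent when Pre-Dia 2 was left out. Peaks on single-peak scaffolds had a median level of 76.9 normalised reads, against 61.5 for all peaks.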

How the data were processed

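The authors trimmed reads with Trim Galore 0.4.1, aligned them with Bowtie2 2.2.5 to Austrofundulus_limnaeus-1.0, filtered duplicates and weak alignments (Picard 2.22.1, SAMtools 1.5), corrected read ends for the offset of Tn5 (deepTools 3.2.1), called peaks with MACS2 2.1.1.20160309 and merged them into consensus peaks. Per the methods some libraries of the study were over-transposed. The deposited signal, in a table named RPKM, was found to be whole reads per peak divided by 1 factor per library, within 0.01 reads, with no division by peak width. Coordinates are as deposited, with a smallest start of 0. A further 4 columns of the table were not used.

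A single limma fit (3.58.1, R 4.3.3; trended prior) on log2(value + 1) over 9 libraries and 4 stages gave the contrast Dia 6d minus Pre-Dia, two-sided, with Benjamini-Hochberg adjustment over all 68977 peaks and a threshold of 0.05. On this scale the pseudocount pulls the fold changes of weak peaks towards 0. RPKM had been assumed when the design was written; the test was kept. Count tests (edgeR 4.0.16 quasi-likelihood, DESeq2 1.42.0) used the recovered reads of 8 libraries and left out Dia 1m 3. Its values came out whole too, as did 100% of values in every other library. Intervals for read ratios are exact binomial (95%). Named were, among called peaks with a mean of at least 20 and groups that do not overlap, the 8 largest differences and the 3 smallest adjusted p in each direction, the 3 longest runs in each direction, with ties broken by the mean difference, and the peaks next to the threshold. The members, lists and rules were chosen with earlier results of these data known. Alternatives were pseudocounts of 0.5 and 5, a mean of at least 10, quantile normalisation, the 5 libraries alone, thinned reads, a replicate block and leaving out each library. Sequence motifs and nearest genes, planned if a genome and gene positions were at hand, were not analysed here.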

Additional observations from a re-analysis of the deposited data

Results flagged for a closer look

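At 5 of the named peaks the difference between Dia 6d and Pre-Dia differed from that between Dia 1m and Dev by limma's test of the difference of differences, adjusted over all peaks. At Alim_peak_42880 the difference of differences was 4.93 on the log2 scale (adjusted p = 1.6e-04), with Dia 1m and Dev differing by -0.13 on average. Its Dia 1m libraries, at 13.0 and 94.5, lay on either side of both Dev libraries. At Alim_peak_20154 it was 3.34 (adjusted p = 0.016). At the neighbouring peaks Alim_peak_625 and Alim_peak_624 it was 2.29 and 1.93 (adjusted p = 0.039 and 0.041), where Dia 1m exceeded Dev by 1.14 and 1.13. At Alim_peak_64600, which fell in Dia 6d, it was -4.46 (adjusted p = 1.6e-04), with Dia 1m and Dev differing by 0.29 on average. Here too the Dia 1m libraries, at 210 and 72.6, lay on either side of both Dev libraries. These peaks were named for a large difference or a small p between Dia 6d and Pre-Dia, which favours a large difference of differences. Groups held 2 or 3 libraries, and the difference of differences was not refitted with single libraries left out.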

How the results depend on the processing

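Direction did not reverse for any of the 22 named peaks, those next to the threshold included, under any of the 19 alternatives. Many of these could not reverse it. The filter, the 5 libraries alone and leaving out a Dev or Dia 1m library do not change the difference. Where the groups do not overlap, neither the pseudocounts nor leaving out a library of the comparison could reverse it. Of the 418 values of the named peaks under the alternatives, 358 stayed on their side of the threshold, 50 were no longer past it and 10 came past it. The counts depended on the setting. Against 3334 calls, 2377 higher and 957 lower, reads thinned to the shallowest library gave 1378 (995 and 383) and DESeq2 gave 1859 (1072 and 787). Scaffold centring, chosen after seeing the data, gave 1508 higher peaks. Leaving out 1 library gave between 1051 (without Dia 6d 2) and 7725 (without Pre-Dia 2) calls, with 769 to 5555 higher and 282 to 2170 lower; without Dia 6d 1 there were 812 and 319, and without Dia 6d 3 there were 1441 and 520. The pseudocounts, the filter, quantile normalisation, the 5 libraries alone and edgeR kept the 3 counts within 1.5 times. Outside the replicate block, 229 higher and 97 lower peaks were called in the same direction in all 18 other settings.

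The replicate block gave 113 calls, 92 higher and 21 lower. Only Dia 6d 1 carried its number, so that with the block this library added nothing to the difference. The added terms also left less from which to estimate the error. How far this lowered the count was not tested. The groups share only the number 2, and the deviations of Pre-Dia 2 and Dia 6d 2 from their group means correlated at -0.03 across peaks. Over all stages, libraries with the same number correlated at -0.17 to 0.18. In a group of 2 libraries the deviations mirror each other, so that these values cannot exclude a batch shared by number. The labels do not give the numbers as pairs, and the numbers were not taken as pairs.

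With an adjusted p below 0.01, the share of peaks with Dia 1m on the same side of Dev was 56.9% for higher and 54.9% for lower peaks. The median level of called peaks relative to all peaks was 1.04 for higher and 1.41 for lower peaks, and 1.15 and 1.28 per base of peak width. Precision was limited by 2 Pre-Dia libraries, 1 of them with 2.99 M reads.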
